A study of Homo sapiens with 54 samples.

Results

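The p53 target genes described here are 34 genes that are known to be switched on by the transcription factor p53, chosen by symbol from the 58870 genes of the count table. They include the feedback genes MDM2, PPM1D and CCNG1. The arrest and growth genes are CDKN1A, BTG2, GADD45A, PLK2, PLK3, SESN1, GDF15 and SERTAD1. The apoptosis genes are BBC3, BAX, PMAIP1, AEN, TP53INP1, PHLDA3, TRIAP1, SPATA18 and SUSD6. FAS, TNFRSF10A, TNFRSF10B, TNFRSF10C and EDA2R are here called death receptor genes. Among them TNFRSF10C encodes a decoy, and EDA2R a related receptor of the tumour necrosis factor family. The others are the DNA repair and nucleotide genes XPC, DDB2, POLH and RRM2B, the metabolic genes TIGAR, FDXR and TP53I3, and ZMAT3 and BLOC1S2. A549 cells, a human lung adenocarcinoma line, stably carried an insertless vector (E_V, here empty vector cells) or a vector for overexpression of USP18 (USP18_O_E, here USP18 cells), a protease that removes the ubiquitin-like protein ISG15 from other proteins. Both were exposed for 48 h to vehicle (DMSO), CP2 at 2 or 5 µM, or CP14 or CP18 at 1, 2.5 or 5 µM, which gave 18 groups of 3 libraries, 54 in all. The study asked which transcripts change when candidate USP18 inhibitors are applied and whether more USP18 alters that change. The labels give the compounds by code and do not say which code is β-lapachone. Each vector was represented by 1 engineered population, so that an effect of USP18 and a difference between 2 populations cannot be told apart, and the labels do not say that the 3 libraries of a group came from separate cultures, so that p-values measure the spread between these libraries, which may be technical.

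Expected counts per library summed to between 16673228 and 25609062 (median 19701304). Levels are CPM, counts scaled for library size and composition, and are compared between groups for 1 gene, not between genes. Gene coordinates are those of GENCODE for GRCh38. USP18 itself averaged 10.8 ± 0.250 CPM (SD, n = 3) in empty vector cells and 1307 ± 18.5 CPM in the USP18 cells under vehicle (log2 fold change 6.92, SE 0.04, adjusted p = 1.3e-25). With 5 µM CP14 the USP18 level in the USP18 cells was 2047 ± 76.2 CPM, and in their other treated groups its mean lay between 981 CPM (1 µM CP18) and 1271 CPM (5 µM CP2). CDKN2A, which is deleted in A549, had 0 counts in every library. Of the 8 epithelial and A549 markers, EPCAM lay between 1.33 and 14.8 CPM and the other 7 were at 21.2 CPM or more in every library. Of 7 markers of leukocytes, macrophages, fibroblasts and endothelium, CD3E was at 0, PTPRC, COL1A2, PECAM1 and VWF were at 0.498 CPM or less, COL1A1 lay between 3.66 and 14.2 CPM and CD68 between 31.3 and 99.7 CPM.

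The protein p53 is a transcription factor that cells stabilise after DNA damage and other stresses. MDM2, itself a p53 target, is the ubiquitin ligase that marks p53 for destruction and so closes a feedback loop. Targets of p53 stop the cell cycle, repair DNA, adjust metabolism or start apoptosis through mitochondria and death receptors. Many of these targets also answer to other transcription factors, among them ATF4 and its partner DDIT3 in the integrated stress response.

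The binding sequence of p53 is shown first because it is how p53 finds its targets. A full p53 site is 2 decamers side by side, each of 3 purines, a C, 2 bases that are A or T, a G and 3 pyrimidines, and it reads alike on both strands. RefSeq promoter windows (GRCh38.p14, 250 bases before to 50 after a start) were held for 27 of the 34 genes, in 41 windows. A site with its C and G core bases and at most 3 mismatches elsewhere was found in 9 of the 41 windows (22.0%), which belong to 8 genes, and in 392 of all 35116 windows (1.12%). Such a match describes letters, not binding. Its absence from the other windows, CDKN1A's among them, says only that the letters are not in those 300 bases. The 8 matches follow, with the site in capitals and the flanks, which stop at the start of the transcript, in lower case.
DDB2 chr11:47214939-47214988 (plus strand): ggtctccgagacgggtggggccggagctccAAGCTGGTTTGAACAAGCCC
MDM2 chr12:68808893-68808972 (plus strand): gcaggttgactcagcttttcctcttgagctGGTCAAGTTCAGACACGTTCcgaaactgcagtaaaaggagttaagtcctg
FAS chr10:88991279-88991358 (plus strand): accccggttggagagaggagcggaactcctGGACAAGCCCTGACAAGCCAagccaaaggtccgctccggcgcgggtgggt
AEN chr15:88621276-88621339 (plus strand): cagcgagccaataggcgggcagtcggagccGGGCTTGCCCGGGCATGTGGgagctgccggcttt
SESN1 chr6:109008989-109009067 (minus strand): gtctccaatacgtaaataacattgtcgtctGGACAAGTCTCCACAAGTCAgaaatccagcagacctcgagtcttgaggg
FDXR chr17:74872995-74873045 (minus strand): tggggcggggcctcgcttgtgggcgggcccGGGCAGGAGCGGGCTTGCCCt
PMAIP1 chr18:59899781-59899860 (plus strand): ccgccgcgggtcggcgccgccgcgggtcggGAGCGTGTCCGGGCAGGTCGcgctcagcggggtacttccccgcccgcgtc
GDF15 chr19:18386186-18386205 (plus strand): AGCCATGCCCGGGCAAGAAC

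DDB2 had 1 mismatch, MDM2, FAS and AEN had 2, and SESN1, FDXR, PMAIP1 and GDF15 had 3. Distances here are to starts of RefSeq transcripts. By the GENCODE coordinates, the sites of MDM2, FAS, SESN1, GDF15, DDB2 and FDXR lay inside the gene. The MDM2 site began 94 bases before the transcript start of 1 of the gene's windows. An overlapping window of MDM2 matched with the same site. Starts of the other sites lay 5 bases before the transcript start in DDB2, 21 in FDXR, 34 in AEN, 49 in SESN1, 122 in FAS and 185 in PMAIP1, and in GDF15 28 bases after it.

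With vehicle alone, most p53 targets were lower in USP18 cells than in empty vector cells. Of the 33 members with enough counts to test, 26 were lower and 4 were higher at an adjusted p under 0.05 (edgeR's quasi-likelihood test, Benjamini-Hochberg over all 15252 genes tested). Among all genes tested, 28.7% were lower and 29% higher. The median log2 fold change was -0.30 over the members and -0.0058 over all genes. A stricter call that also needs an absolute log2 fold change over 1 was met in the lower direction by 4 members, against 5.57% of all genes. In a culture, fewer cells that express a gene and less RNA of it in each cell cannot be told apart.

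The arrest gene CDKN1A (chr6:36676460-36687337), which encodes the cyclin-dependent kinase inhibitor p21, was at 284, 274 and 281 CPM in the empty vector libraries and at 108, 103 and 104 CPM in the USP18 libraries. It thus stood at 0.376 of its empty vector level, with no overlap between the groups (log2 fold change -1.41, SE 0.03, adjusted p = 1.4e-17). BTG2, which encodes an antiproliferative protein, was at 32.9, 34.3 and 32.6 CPM and at 14.9, 17.6 and 17.0 CPM, again without overlap (log2 fold change -1.01, SE 0.07, adjusted p = 9.8e-10). GADD45A, a growth arrest and DNA damage gene (-0.60), PLK3, a stress-activated kinase (-0.41), and SESN1, a brake on the mTORC1 growth pathway (-0.27), were lower as well. PLK3 missed the threshold without replicate 3 of the empty vector cells (adjusted p = 0.055). The cytokine gene GDF15 (chr19:18374731-18389176) went the other way, at 93.7, 84.5 and 77.7 CPM in empty vector cells and 112, 112 and 121 CPM in the USP18 cells (log2 fold change 0.43, SE 0.05, adjusted p = 1.2e-06). SERTAD1, which binds CDK4, was also higher in USP18 cells, at 20.8, 24.8 and 22.7 against 19.4, 18.6 and 20.5 CPM (log2 fold change 0.22, SE 0.07, adjusted p = 0.016), a call that was lost without replicate 2 of either group (adjusted p up to 0.092). The polo-like kinase gene PLK2 had 165, 168 and 169 against 161, 168 and 163 CPM and did not pass the test (log2 fold change -0.03, SE 0.03, adjusted p = 0.36).

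Of the 9 apoptosis genes, 8 were lower in USP18 cells. SPATA18 (chr4:52051304-52097299), which takes part in the removal of damaged mitochondrial content, was at 7.77, 8.53 and 7.34 CPM in empty vector cells and 3.23, 2.78 and 2.53 CPM in the USP18 cells. This was the lowest fold change among the members (log2 fold change -1.46, SE 0.14, adjusted p = 5.8e-08). PHLDA3, an inhibitor of AKT signalling (-0.93), and TP53INP1, a stress protein that promotes autophagy and cell death (-0.89), came next. The BCL-2 family killers BAX (-0.25) and BBC3 (-0.26), the nuclease gene AEN (-0.22), the apoptosome inhibitor gene TRIAP1 (-0.25) and SUSD6 (-0.30) were lower by less. PMAIP1 (chr18:59899996-59904305), whose product NOXA neutralises the survival protein MCL1, was higher, at 20.1, 22.6 and 25.3 CPM in USP18 cells against 14.0, 14.3 and 13.8 CPM in empty vector cells (log2 fold change 0.70, SE 0.08, adjusted p = 9.4e-07). Every USP18 library lay above every empty vector library for PMAIP1, and it was the highest fold change among the members.

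Among the death receptor genes, FAS (log2 fold change -0.94, SE 0.07, adjusted p = 1.5e-09) and EDA2R (log2 fold change -0.35, SE 0.07, adjusted p = 2.3e-04) were lower in USP18 cells. The TRAIL receptor genes TNFRSF10A and TNFRSF10B did not pass the test, with log2 fold changes of 0.07 (95% interval -0.05 to 0.18) and 0.05 (0.00 to 0.10). The intervals are approximate, and the unadjusted p of edgeR's test for TNFRSF10B was 0.051. TNFRSF10C, a decoy TRAIL receptor whose reads can be shared with its close relatives, had between 1.13 and 21.2 expected counts per library over the whole study, was left out of this test by the filter on low counts, and passed none of the comparisons that could test it. All 4 DNA repair and nucleotide genes were lower: DDB2 (-0.49) and XPC (-0.48), which find DNA lesions for nucleotide excision repair, the bypass polymerase gene POLH (-0.44) and the ribonucleotide reductase subunit gene RRM2B (-0.10). The RRM2B call had an adjusted p of 0.025, which rose to as much as 0.16 when replicate 2 or 3 of the empty vector cells or replicate 1 or 3 of the USP18 cells was left out.

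FDXR (chr17:74862497-74873031), which encodes the ferredoxin reductase of mitochondria, was at 115, 116 and 113 CPM in empty vector cells and 55.2, 52.1 and 54.8 CPM in the USP18 cells (log2 fold change -1.09, SE 0.04, adjusted p = 2.4e-14). It thus lay at 0.471 of its empty vector level, without overlap. The oxidoreductase gene TP53I3 (-0.78), the RNA-binding zinc finger gene ZMAT3 (-0.82), BLOC1S2 (-0.37), a subunit of lysosome-positioning complexes, and TIGAR (-0.27), a phosphatase that diverts glycolysis, were lower too.

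The feedback gene MDM2 (chr12:68808177-68845544) was at 188, 202 and 189.6 CPM in empty vector cells and at 166, 162 and 163 CPM in the USP18 cells (log2 fold change -0.24, SE 0.03, adjusted p = 3.1e-06). PPM1D, the phosphatase WIP1 that resets p53 signalling, was lower by a similar amount (-0.22). CCNG1, which encodes cyclin G1, was higher, at 151, 149.6 and 151 against 133, 131 and 131 CPM (log2 fold change 0.19, SE 0.03, adjusted p = 8.2e-06). The groups did not overlap for MDM2 or CCNG1 and their order was opposite.

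**Figure D1:**
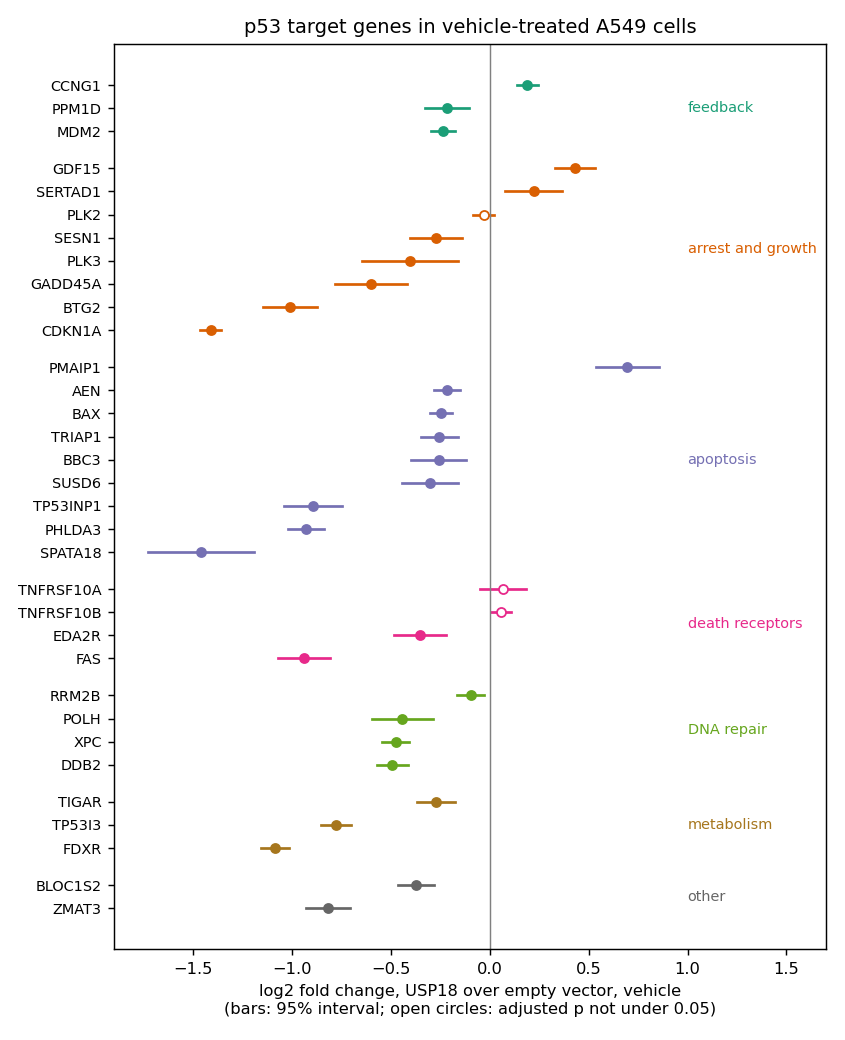
Log2 fold change of 33 p53 target genes in USP18 over empty vector A549 cells under vehicle (x axis), with genes on the y axis grouped by role, 95% intervals as bars and open circles where the adjusted p is not under 0.05. The 26 genes that were lower reach from -1.46 for SPATA18 to -0.10 for RRM2B, and PMAIP1, GDF15, SERTAD1 and CCNG1 lie to the right of 0.

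Regulators of the pathway and other gene lists were compared in the same way. MDM4, which encodes an inhibitor of p53, was higher in USP18 cells under vehicle, at 30.4, 29.6 and 30.5 against 26.3, 25.8 and 24.8 CPM (log2 fold change 0.24, SE 0.06, adjusted p = 0.0022). Of 19 tested p53 regulators 6 were higher and 6 lower, beside the 29% and 28.7% of all genes, with the largest change in TP63 (1.62). Of 29 other tested p53 targets that are not among the 34, 5 were higher and 16 lower, with a median of -0.30 and the largest change in KITLG (-1.99). Of 20 cell cycle genes 11 were higher and 7 lower. Of 10 ATF4 stress genes 4 were higher and 5 lower, with log2 fold changes from -1.35 to 0.95. Both lists can be read against the same shares of all genes. CD68 (-0.16) and COL1A1 (-1.41), the 2 markers of other cell types with enough counts to test, were lower. All 8 epithelial and A549 markers were lower as well, with a median of -0.63, and whether these markers have a part in the result was not tested.

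Across the 18 groups, 29 of the 34 members had their highest mean with 5 µM CP14, 18 of them in empty vector cells and 11 in the USP18 cells. The lowest mean lay in a group of USP18 cells for 28 members. As a ratio of the highest to the lowest group mean, GADD45A had the widest span (10.0), from 13.1 to 130.9 CPM, followed by CDKN1A (6.65), from 104.4 to 695 CPM. PLK2 had the narrowest ratio (1.31), from 149.9 to 196 CPM. The order of the cell types held in groups other than 5 µM CP14 for several members, picked after their values were seen. Group means of CDKN1A lay between 267 and 317 CPM in the other 8 groups of empty vector cells and between 104 and 156 CPM in those of USP18 cells, and FDXR lay between 110.0 and 128 CPM and between 53.5 and 78.2 CPM. FAS lay between 24.6 and 31.4 CPM in empty vector cells and between 12.7 and 18.3 CPM in the USP18 cells. PMAIP1 had the opposite order, with 14.0 to 17.2 CPM in empty vector cells and 21.4 to 27.6 CPM in the USP18 cells. For GADD45A the ranges were 18.9 to 25.3 CPM and 13.1 to 23.9 CPM, which overlap. The 8 treatments of each cell type were compared with the same 3 vehicle libraries, so that these comparisons are not independent of one another.

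**Figure D2:**
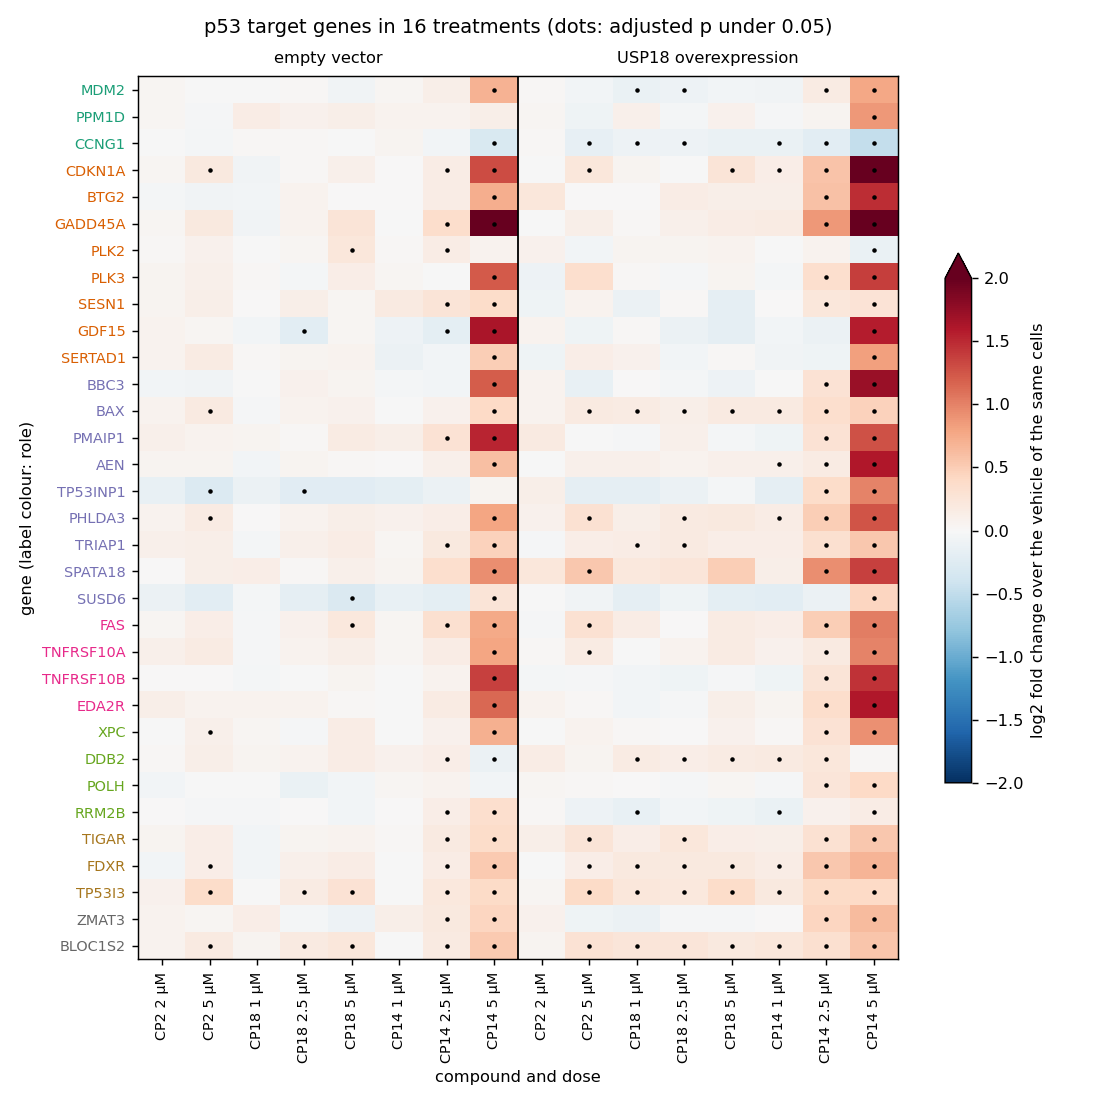
Log2 fold change over the vehicle of the same cells for 33 p53 target genes (rows) in 16 treatments (columns, compound and dose), with empty vector cells on the left and USP18 cells on the right. The colour scale ends at 2, dots mark an adjusted p under 0.05, and the columns for 5 µM CP14 hold 29 and 32 dots.

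At 5 µM, CP14 raised most p53 targets in empty vector cells. Of 33 members tested, 27 rose and 2 fell, while 31% of all 15947 genes rose and 32.1% fell. The median log2 fold change was 0.53 over the members and 0.0050 over all genes. By the stricter call 8 members rose, against 6.31% of all genes. By role, 7 of 8 arrest and growth genes rose (median 0.98), as did 4 of 4 tested death receptor genes (median 0.97) and 8 of 9 apoptosis genes (median 0.60).

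GADD45A (chr1:67685201-67688334) went from 20.1, 20.1 and 19.4 CPM under vehicle to 115, 115 and 104 CPM in empty vector cells. Its fold change of 5.60 was the largest among the members (log2 fold change 2.49, SE 0.08, adjusted p = 5.1e-17). CDKN1A reached 694, 709 and 682 CPM, 2.48-fold above vehicle (log2 fold change 1.31, SE 0.04, adjusted p = 6.3e-18). GDF15 reached 255, 277 and 261 CPM (log2 fold change 1.63, SE 0.06, adjusted p = 1.2e-15), and PLK3 rose by 1.22 on the log2 scale. In each of these genes the treated libraries lay above every vehicle library. BTG2 (0.73), SERTAD1 (0.50) and SESN1 (0.36) rose by less, and PLK2 did not pass the test (0.07, 95% interval -0.02 to 0.16).

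PMAIP1 reached 41.3, 37.6 and 43.2 CPM in empty vector cells with 5 µM CP14 (log2 fold change 1.53, SE 0.08, adjusted p = 1.9e-13). BBC3 (1.21), SPATA18 (0.92), PHLDA3 (0.79), AEN (0.60), TRIAP1 (0.47), BAX (0.40) and SUSD6 (0.26) rose with it, and TP53INP1 (0.05) did not pass the test. TNFRSF10B (chr8:23020133-23069031), the gene for the death receptor DR5, which is also known as a target of DDIT3, went from 238, 239 and 250.2 to 628, 636 and 613 CPM (log2 fold change 1.36, SE 0.03, adjusted p = 7.8e-19). The treated range lay above the vehicle range. The other death receptor genes rose by 1.14 (EDA2R), 0.80 (TNFRSF10A) and 0.75 (FAS). Of the repair genes, XPC rose by 0.71 and RRM2B by 0.34, POLH did not pass the test (-0.06) and DDB2 fell, from 79.2, 83.0 and 80.1 to 73.6, 76.7 and 72.8 CPM (log2 fold change -0.12, SE 0.04, adjusted p = 0.022). The DDB2 call was lost without replicate 2 of the vehicle libraries or replicate 1 or 3 of the treated ones (adjusted p up to 0.080). FDXR (0.53), BLOC1S2 (0.52), ZMAT3 (0.43), TP53I3 (0.39) and TIGAR (0.37) rose.

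MDM2 reached 331, 303 and 311 CPM with 5 µM CP14 in empty vector cells (log2 fold change 0.70, SE 0.04, adjusted p = 1.1e-12). PPM1D did not pass the test (0.12). CCNG1 fell, from 133, 131 and 131 to 106, 107 and 108 CPM (log2 fold change -0.31, SE 0.05, adjusted p = 1.2e-05), and the groups did not overlap. The 3 feedback genes therefore held a rise, a fall and a value that did not pass.

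**Figure D3:**
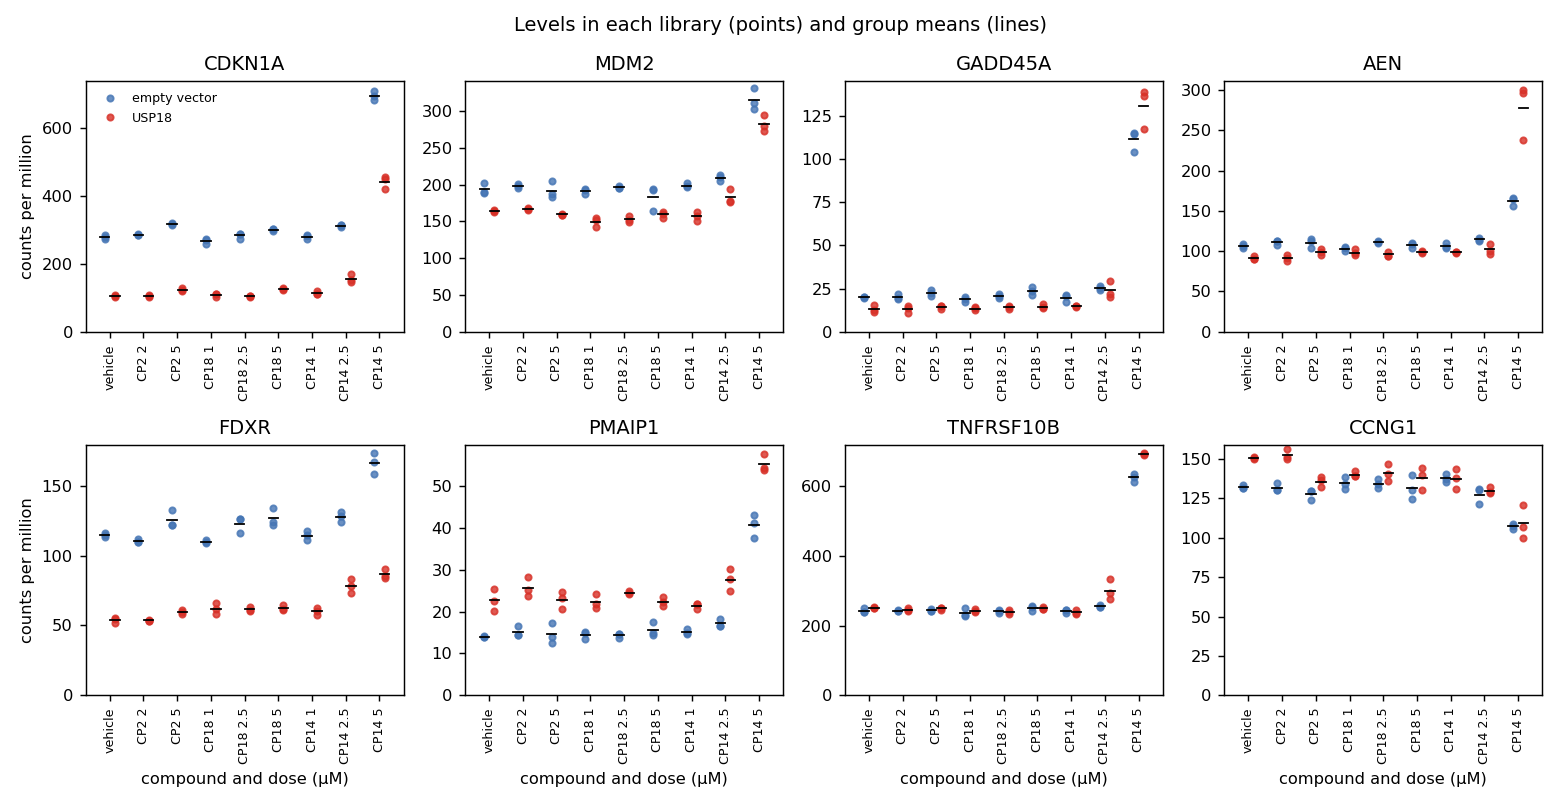
CPM (y axis, from 0) of 8 p53 target genes in each of the 54 libraries, by compound and dose in µM (x axis), with empty vector cells in blue, USP18 cells in red and group means as black lines. With 5 µM CP14, CDKN1A lies at 682 to 709 CPM in empty vector cells and at 419.5 to 455 CPM in the USP18 cells, and CCNG1 lies below its vehicle range in both.

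In USP18 cells, 5 µM CP14 raised 30 of 33 members and lowered 2, with 34.4% of all genes rising and 34.3% falling. The members had a median log2 fold change of 0.86, against 0.011 over all genes, and 13 met the stricter call, against 9.22% of all genes. GADD45A went from 12.3, 15.5 and 11.4 CPM under vehicle to 117, 139 and 136 CPM (log2 fold change 3.32, SE 0.08, adjusted p = 8.6e-19). CDKN1A went from 108, 103 and 104 to 419.5, 455 and 451 CPM, a 4.19-fold rise (log2 fold change 2.07, SE 0.04, adjusted p = 1.5e-20). Although its fold change was larger, the level of CDKN1A in these libraries stayed below the 682 CPM of the lowest empty vector library at the same dose. GADD45A, by contrast, was at 104 to 115 CPM in the treated empty vector cells and at 117 to 139 CPM in the treated USP18 cells.

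BBC3 (chr19:47220822-47232766), the gene for the BH3-only killer PUMA, rose from 18.6, 17.2 and 16.9 to 59.0, 56.3 and 59.9 CPM in USP18 cells (log2 fold change 1.73, SE 0.07, adjusted p = 2.8e-15). EDA2R (chrX:66595637-66639298), which encodes a receptor of the tumour necrosis factor family, rose from 19.3, 22.2 and 19.9 to 62.5, 64.7 and 60.4 CPM (log2 fold change 1.60, SE 0.06, adjusted p = 3.3e-15). Neither gene's groups overlapped. AEN (1.60), SPATA18 (1.37), PMAIP1 (1.28), PHLDA3 (1.27), TP53INP1 (0.99), TRIAP1 (0.54), BAX (0.47) and SUSD6 (0.43) completed the 9 apoptosis genes, which all rose. Death receptor rises were 1.45 for TNFRSF10B, 1.03 for FAS and 1.00 for TNFRSF10A. Among arrest and growth genes GDF15 (1.57), BTG2 (1.48), PLK3 (1.38), SERTAD1 (0.82) and SESN1 (0.27) rose. PLK2 fell, from 161, 168 and 163 to 166, 144 and 140.0 CPM with overlapping groups (log2 fold change -0.13, SE 0.05, adjusted p = 0.015), and this call was lost without replicate 2 or 3 of either group (adjusted p up to 0.20).

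Both MDM2 (0.78, from 166, 162 and 163 to 273, 294 and 280.2 CPM) and PPM1D (0.86) rose in USP18 cells with 5 µM CP14. CCNG1 fell from 151, 149.6 and 151 to 121, 107 and 99.7 CPM (log2 fold change -0.47, SE 0.05, adjusted p = 1.7e-08). XPC (0.92), POLH (0.39) and RRM2B (0.15) rose among the repair genes, and DDB2 (0.02, 95% interval -0.07 to 0.11) did not pass the test. FDXR (0.68), ZMAT3 (0.64), BLOC1S2 (0.56), TIGAR (0.55) and TP53I3 (0.40) rose as well.

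The change with 5 µM CP14 differed between the cell types for 15 members. Tested as an interaction (change in USP18 cells minus change in empty vector cells), 13 had the larger rise in USP18 cells and 2 had a negative interaction, while 13.3% of all genes had a positive and 14.4% a negative one. In the USP18 cells USP18 itself was at 1965 to 2115 CPM with this treatment against 1292 to 1328 CPM under vehicle, and its part in these interactions was not tested. AEN had the largest interaction. From 109, 103 and 107 CPM under vehicle it rose to 165, 165 and 155 CPM in empty vector cells, and from 89.6, 90.4 and 94.4 to 237, 296 and 300.4 CPM in USP18 cells. AEN was thus lower in USP18 cells under vehicle and higher there with CP14 (interaction 0.99, SE 0.09, adjusted p = 5.0e-08). TP53INP1 moved from 36.6, 42.2 and 38.8 to 42.9, 38.7 and 40.7 CPM in empty vector cells. In USP18 cells it moved from 21.1, 23.0 and 19.0 to 37.6, 45.1 and 43.3 CPM, so that treated libraries of both cell types covered much the same range (interaction 0.94, SE 0.11, adjusted p = 1.2e-06).

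For the other large interactions, GADD45A had 0.83 (SE 0.12, adjusted p = 1.6e-05) and CDKN1A had 0.76 (SE 0.05, adjusted p = 1.0e-09). BTG2 (0.75), PPM1D (0.74), BBC3 (0.52), PHLDA3 (0.48), EDA2R (0.46), POLH (0.45), SERTAD1 (0.33), FAS (0.27) and XPC (0.21) were positive. RRM2B (-0.20) and PLK2 (-0.20) were negative. The interaction of MDM2 was 0.08 (95% interval -0.03 to 0.19) and did not pass, nor did those of GDF15 (-0.06, -0.22 to 0.11) and PMAIP1 (-0.25, -0.46 to -0.05). When 1 library was left out, FAS, RRM2B, PLK2 and SERTAD1 could miss the threshold, with adjusted p up to 0.051, 0.057, 0.085 and 0.085. These calls were lost for FAS without replicate 1 of the vehicle-treated empty vector cells and for RRM2B without replicate 2 of the vehicle-treated USP18 cells. PLK2 lost its call without vehicle replicate 1 in empty vector cells or replicate 2 or 3 of either group of USP18 cells. SERTAD1 lost its call without replicate 3 of either group of empty vector cells, replicate 1 of the treated empty vector cells, vehicle replicate 1 of the USP18 cells or replicate 3 of the treated USP18 cells.

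**Figure D4:**
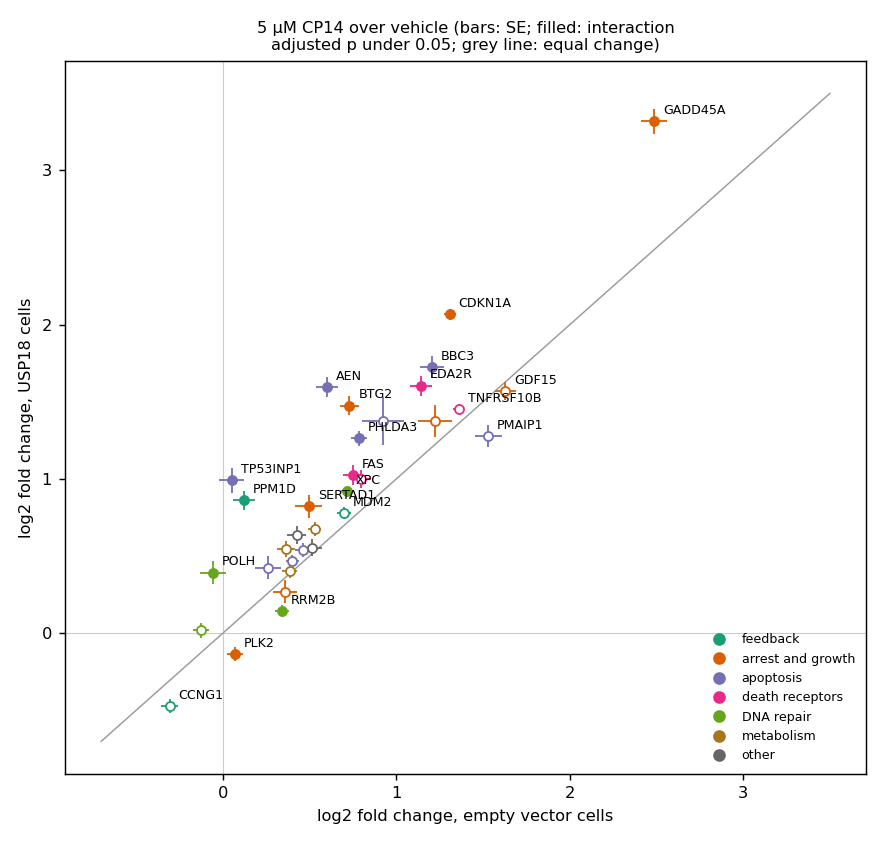
Log2 fold change with 5 µM CP14 over vehicle in empty vector cells (x axis) and USP18 cells (y axis) for 33 p53 target genes, with SE bars, colour by role, a grey line of equal change and filled points where the interaction passed the test. The 13 filled points above the line include AEN (0.60 and 1.60) and CDKN1A (1.31 and 2.07).

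Other gene lists moved with 5 µM CP14 as well. All 20 cell cycle genes fell in both cell types, with medians of -1.86 and -1.87, and the largest fall in empty vector cells was that of MKI67 (-2.42) and in USP18 cells that of RRM2 (-2.95). Genes of the ATF4 stress response rose, 10 of 10 in empty vector cells and 9 of 10 in the USP18 cells, where SLC7A11 fell (-0.20). The largest rises were in CHAC1 (2.81) and DDIT3 (3.60), respectively. Other p53 targets were less uniform, with 18 higher and 8 lower of 29 in empty vector cells and 18 higher and 6 lower in the USP18 cells, led by ATF3 (2.86 and 3.53). The epithelial and A549 markers fell in 7 of 8 cases in each cell type, while KRT7 rose (0.94 and 1.16). Of the 7 markers of other cell types 2 could be tested. CD68 rose in both cell types (0.85 and 1.56), and COL1A1 fell in empty vector cells (-1.01) and did not pass the test in the USP18 cells (-0.25). Both had a positive interaction (0.71 and 0.76). Among all genes 13.3% had a positive and 14.4% a negative interaction. Of 29 other p53 targets 12 were positive and 2 negative, and of 10 ATF4 stress genes 3 and 5. Of 20 cell cycle genes 1 was positive and 3 negative, of 8 epithelial and A549 markers 2 and 3. Of 18 tested p53 regulators 0 were positive and 4 negative. The part of these changes in the p53 target result was not tested.

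Beside the shares of all genes given above (31% and 32.1% in empty vector cells, 34.4% and 34.3% in the USP18 cells), the p53 regulators had 8 up and 6 down in empty vector cells and 8 up and 8 down in the USP18 cells, and TP63 fell most (-1.15 and -2.90). MDM4 rose by 0.37 in empty vector cells (adjusted p = 3.0e-05) and by 0.27 in the USP18 cells (adjusted p = 4.9e-04).

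At 2.5 µM, CP14 gave smaller changes. In empty vector cells 14 of 34 members rose and 1 fell, against 7.06% and 8.07% of all genes, with a member median of 0.14. The largest were GADD45A at 25.3 ± 1.17 CPM (SD, n = 3; log2 fold change 0.35, SE 0.11, adjusted p = 0.043), FAS at 31.4 ± 1.38 CPM (log2 fold change 0.33, SE 0.07, adjusted p = 0.0054) and PMAIP1 at 17.2 ± 0.984 CPM (log2 fold change 0.29, SE 0.09, adjusted p = 0.038). GDF15 was the member that fell (-0.20), although it rose at 5 µM, and this call was lost without any 1 of 5 of the 6 libraries (adjusted p up to 0.25). This count was sensitive to single libraries, and between 6 (without replicate 1 of the vehicle libraries) and 11 members passed when 1 library was left out. GADD45A and PMAIP1 missed the threshold whichever of the 6 libraries was left out, with adjusted p up to 0.14 for each.

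USP18 cells at 2.5 µM CP14 had 26 members higher and 1 lower, against 16.3% and 16.4% of all genes, with a median of 0.29. SPATA18 was at 5.43 ± 1.06 CPM (log2 fold change 0.93, SE 0.16, adjusted p = 1.8e-04), GADD45A at 23.9 ± 4.81 CPM (log2 fold change 0.87, SE 0.12, adjusted p = 1.8e-05) and BTG2 at 24.6 ± 1.14 CPM (log2 fold change 0.58, SE 0.08, adjusted p = 1.6e-05). CDKN1A was at 171, 152 and 145 CPM (0.58) and MDM2 at 194, 177 and 176 CPM (0.16). CCNG1 was the member that fell (-0.21). The interaction passed for 8 members, 7 positive and 1 negative, against 4.08% and 3.92% of all genes, with TP53INP1 (0.49), BTG2 (0.43) and CDKN1A (0.42) highest. The BTG2 interaction missed the threshold without vehicle replicate 1 of the USP18 cells (adjusted p = 0.056). The negative one, CCNG1 (-0.16), missed it in 9 of 12 such omissions (adjusted p up to 0.10), and XPC (0.21) without treated replicate 2 of the USP18 cells (adjusted p = 0.057). At this dose 10 of 10 ATF4 stress genes were higher and 14 of 20 cell cycle genes lower in USP18 cells, and 3 and 3 in empty vector cells. Of 29 other tested p53 targets, 4 were higher and 4 lower in empty vector cells (median -0.026). In USP18 cells 13 of them were higher and 4 lower (median 0.074). Of the marker lists, CD68 was higher in USP18 cells (0.61, interaction 0.56), COL1A1 was lower in empty vector cells (-0.43), and 4 of 8 epithelial and A549 markers were lower in each cell type. In the other direction KRT7 was higher in both (0.21 in empty vector and 0.58 in USP18 cells) and AKR1B10 in USP18 cells (0.22). The part of these lists in the result was not tested.

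With 1 µM CP14, 0 of 34 members passed in empty vector cells (0.861% of all genes), where 4 had an unadjusted p under 0.05 and DESeq2 called 0. In USP18 cells 10 of 34 passed (15.3% of all genes), 8 higher and 2 lower, led by BLOC1S2 (0.22). There 7 of 20 cell cycle genes and CD68 (0.17) were higher, and their part in the result was not tested. The interaction passed for 4 (5.79% of all genes), which were BLOC1S2 (0.23), TP53I3 (0.20), BAX (0.20) and CCNG1 (-0.19). None of these 4 passed when replicate 2 of the treated empty vector cells was left out (the count was then 0, and the adjusted p over such omissions reached 0.14 for BLOC1S2).

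No p53 target that passed the test changed by a log2 fold change over 1 with CP18. At 5 µM in empty vector cells 5 of 33 members passed (8.4% of all genes), 4 higher and 1 lower. The largest were TP53I3 at 127 ± 8.60 CPM (log2 fold change 0.29, SE 0.05, adjusted p = 0.0015), SUSD6 at 19.4 ± 1.55 CPM (log2 fold change -0.29, SE 0.08, adjusted p = 0.030) and PLK2 at 196 ± 13.2 CPM (log2 fold change 0.23, SE 0.05, adjusted p = 0.0045). SUSD6 missed the threshold without vehicle replicate 2 or 3 or treated replicate 2 (adjusted p up to 0.14), and leaving out 1 library gave from 2 to 10 members. In USP18 cells 6 passed (10.7% of all genes), all higher, led by TP53I3 at 78.7 ± 2.09 CPM (log2 fold change 0.36, SE 0.05, adjusted p = 1.5e-04), CDKN1A at 126 ± 2.38 CPM (log2 fold change 0.26, SE 0.04, adjusted p = 2.2e-04) and FDXR at 62.7 ± 1.92 CPM (log2 fold change 0.20, SE 0.05, adjusted p = 0.012). The FDXR call was lost without vehicle replicate 2 or treated replicate 1 (adjusted p up to 0.069), and leaving out 1 library gave from 3 to 6 members. No interaction passed at 5 µM (0 members, 0.268% of all genes), where 3 had an unadjusted p under 0.05 in edgeR and DESeq2 called 0.

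With CP18 at 2.5 µM 4 members passed in empty vector cells (5.96% of all genes), 2 higher and 2 lower, and 10 in USP18 cells (14.2%), 8 higher and 2 lower. Among those that passed in USP18 cells, BLOC1S2 had the largest change (0.25), and MDM2 was lower (-0.10). The interaction passed for 0 members (0.197% of all genes) in edgeR's test, with 3 at an unadjusted p under 0.05 and 0 called by DESeq2. At 1 µM 0 members passed in empty vector cells (0.368% of all genes, 2 members at an unadjusted p under 0.05, 0 by DESeq2). In USP18 cells 9 passed (15.7%), 6 higher and 3 lower, and the interaction passed for 3 (7.19%), which were FDXR (0.26), TP53I3 (0.25) and BAX (0.19). The TP53I3 and BAX interactions were lost without any 1 of 4 and of 8 libraries, with adjusted p up to 0.069 and 0.11. Of 20 cell cycle genes in USP18 cells, 9 were higher and 0 lower with 1 µM CP18. With 2.5 µM these counts were 11 and 0. Of the 8 epithelial and A549 markers there, 3 were higher and 1 lower with 1 µM, and 2 and 2 with 2.5 µM. In empty vector cells 1 cell cycle gene was higher with 1 µM, and 2 of these markers were lower with 2.5 µM. The part of these lists in the results was not tested.

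CP2 at 5 µM changed 8 members in empty vector cells (12.1% of all genes), 7 of them higher and 1 lower. The largest changes were TP53I3 at 134 ± 5.71 CPM (log2 fold change 0.37, SE 0.04, adjusted p = 2.0e-05), TP53INP1 at 32.0 ± 3.56 CPM (log2 fold change -0.28, SE 0.08, adjusted p = 0.028) and CDKN1A at 317 ± 3.76 CPM (log2 fold change 0.19, SE 0.03, adjusted p = 8.0e-04). The TP53INP1 call was lost without vehicle replicate 2 or treated replicate 2 or 3 (adjusted p up to 0.12), and leaving out 1 library gave from 3 to 7 members. USP18 cells had 11 members past the test (19% of all genes), 10 higher and 1 lower, led by SPATA18 at 4.14 ± 0.415 CPM (log2 fold change 0.53, SE 0.14, adjusted p = 0.0096), TP53I3 at 79.5 ± 2.91 CPM (log2 fold change 0.38, SE 0.05, adjusted p = 1.2e-05) and PHLDA3 at 47.6 ± 1.57 CPM (log2 fold change 0.31, SE 0.05, adjusted p = 3.7e-04). SPATA18 missed the threshold without vehicle replicate 3 or treated replicate 1 (adjusted p up to 0.058). No interaction passed (0 members in edgeR's test, 0.92% of all genes), with 3 at an unadjusted p under 0.05 and 0 called by DESeq2.

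At 2 µM CP2 the counts were 0 in empty vector cells (1.84% of all genes), 0 in USP18 cells (1.13%) and 0 for the interaction (0.0569%) in edgeR's test. At an unadjusted p under 0.05 they were 4, 5 and 3, and DESeq2 called 0 in each. Of the 20 cell cycle genes, 6 rose and 1 fell with 5 µM CP18 in empty vector cells, and 7 rose and 0 fell in the USP18 cells, where 8.4% and 10.7% of all genes passed in either direction. With 5 µM CP2 the counts were 10 and 2 in empty vector cells and 13 and 0 in the USP18 cells (12.1% and 19% of all genes). Of the 8 epithelial and A549 markers, 1 rose and 4 fell with 5 µM CP2 in either cell type. With 5 µM CP18, 1 rose and 2 fell in empty vector cells and 3 rose and 2 fell in the USP18 cells. The part of these lists in the results was not tested.

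The compounds were also compared with each other at matched doses, in 10 comparisons. At 5 µM, p53 targets were mostly higher with CP14 than with CP18, 27 of 34 in empty vector cells (28.2% of all genes) and 29 in USP18 cells (32%). Those lower with CP14 were CCNG1, PLK2 and DDB2 in both, 3 (29.2% of all genes) and 3 (32.8%). GADD45A differed most, by 2.22 (SE 0.08, adjusted p = 2.7e-16) in empty vector cells and 3.15 (SE 0.08, adjusted p = 1.2e-18) in USP18 cells. For CDKN1A the difference was 1.20 and 1.79, and for MDM2 0.77 and 0.82. Against CP2 at 5 µM, CP14 differed in 29 members in empty vector cells (57.2% of all genes) and 29 in USP18 cells (65.6%), of which 27 and 28 were higher with CP14. These 2 sets of comparisons share the CP14 libraries. In all 4, the 20 cell cycle genes were lower with CP14 and 9 or 10 of 10 ATF4 stress genes higher. Of the 8 epithelial and A549 markers, 6 or 7 were lower with CP14 and 1 was higher. Of the 2 testable markers of other cell types, 1 was higher and 1 lower in each. The part of these lists in the result was not tested.

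At 2.5 µM CP14 and CP18 differed in 20 members in USP18 cells, 19 higher with CP14 (14.3% of all genes) and 1 lower (13.9%). The largest differences there were those of GADD45A (0.77), SPATA18 (0.69) and CDKN1A (0.59). In the same comparison 10 of 10 ATF4 stress genes and CD68 (0.53) were higher and 18 of 20 cell cycle genes lower with CP14, and their part in the result was not tested. In empty vector cells 0 passed edgeR's test (1.8% of all genes), 11 had an unadjusted p under 0.05 and DESeq2 called 1, with 95% intervals of the members' differences spanning -0.32 to 0.57 on the log2 scale, TNFRSF10C left out. At 1 µM 0 members differed in empty vector cells (0.0191% of all genes) and 0 in USP18 cells (0.0191%). There 2 and 2 members had an unadjusted p under 0.05, and DESeq2 called 0 in each. With TNFRSF10C left out, the intervals lay within -0.31 to 0.30 and -0.37 to 0.31. CP18 and CP2 at 5 µM did not differ in a member past edgeR's threshold, 0 in empty vector cells (0.031% of all genes) and 0 in USP18 cells (0.0186%). Here 1 and 5 members had an unadjusted p under 0.05, and DESeq2 called 0 in each. The intervals, again with TNFRSF10C left out, lay within -0.28 to 0.30 and -0.46 to 0.34. For CDKN1A the interval of CP18 minus CP2 ran from -0.16 to -0.00 in empty vector cells and from -0.05 to 0.11 in the USP18 cells.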

How the data were processed

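RNA of 54 libraries was sequenced by the authors with poly(A) capture per the labels, while the methods name ribosomal RNA removal. The deposited values are RSEM expected counts per gene, made by the authors from reads trimmed with cutadapt 1.18 and aligned with STAR 2.7.0f to the human genome (hg38). RSEM was 1.3.1 in the submitters' processing notes, and the methods name a mouse annotation for it although the identifiers are human. Whether counting used strand is not given in the sources used here. RSEM divides reads between similar genes, which makes TNFRSF10A, TNFRSF10B and TNFRSF10C less certain.

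Expected counts were rounded to whole numbers and tested with edgeR 4.0.16 (quasi-likelihood, TMM scaling, low genes removed by filterByExpr at 10 counts and 15 in total) in R 4.3.3. The vehicle comparison was fitted on its 6 libraries. For each compound and dose, the changes in both cell types and their interaction came from 1 fit of 4 groups (12 libraries), and compounds were compared in 1 fit of both cell types per dose, so that these tests share an estimate of spread over groups. No fit used the replicate number, and p-values were adjusted over all genes tested (Benjamini-Hochberg, threshold 0.05). Levels are TMM-scaled CPM. The procedure was tested on simulated counts. Alternatives were RLE scaling, no filter, DESeq2 1.42.0, all 54 libraries in 1 fit, the replicate number as a block and leaving out each library in turn.

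The 34 members and the lists (p53 regulators, other p53 targets, cell cycle genes, ATF4 stress genes, epithelial and A549 markers, markers of other cell types) were chosen with earlier results of these data known. Library values were printed for CDKN1A, MDM2, the 4 largest rises and 4 largest falls past the test under vehicle and with 5 µM CP14, and the 4 largest interactions at 5 µM. The 3 largest changes were named with group values for 2.5 µM CP14 and for 5 µM CP18 and CP2. Of each list only MDM4, the largest changes and the 2 testable markers of other cell types were named, and 1 regulator that the rule names is not reported here. Values of PLK2 under vehicle, SLC7A11, KRT7 and AKR1B10 were given in addition, after their values were seen.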

Additional observations from a re-analysis of the deposited data

Results flagged for a closer look

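The change with a compound differed between USP18 and empty vector cells, by edgeR's test of the interaction with Benjamini-Hochberg adjustment over all genes tested, in 30 cases among the members. Each value is the log2 change in USP18 cells minus that in empty vector cells. With 5 µM CP14, where 13.3% of all genes had a positive and 14.4% a negative difference, the values were AEN 0.99, TP53INP1 0.94, GADD45A 0.83, CDKN1A 0.76, BTG2 0.75, PPM1D 0.74, BBC3 0.52, PHLDA3 0.48, EDA2R 0.46, POLH 0.45, SERTAD1 0.33, FAS 0.27 and XPC 0.21, with PLK2 at -0.20 and RRM2B at -0.20. With 2.5 µM CP14 (4.08% and 3.92% of all genes) they were TP53INP1 0.49, BTG2 0.43, CDKN1A 0.42, FDXR 0.38, PHLDA3 0.35, BAX 0.24 and XPC 0.21, with CCNG1 at -0.16. With 1 µM CP14 (5.79% of all genes in either direction, 4 of 34 members) they were BLOC1S2 0.23, TP53I3 0.20 and BAX 0.20, with CCNG1 at -0.19. With 1 µM CP18 they were FDXR 0.26, TP53I3 0.25 and BAX 0.19, a share of members (8.82%) near that of all genes (7.19%). Omitting 1 of the 12 libraries of a fit ended the call in 5 cases each for PLK2 and SERTAD1 at 5 µM CP14, in 9 for CCNG1 at 2.5 µM, in 10 for BLOC1S2, 7 for TP53I3, 3 for BAX and 1 for CCNG1 at 1 µM, and in 8 for BAX and 4 for TP53I3 at 1 µM CP18. It did so in 1 case each for FAS and RRM2B at 5 µM and XPC and BTG2 at 2.5 µM CP14. These differences share the vehicle libraries, and groups of 3 were too small for a check for single libraries that stand apart.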

How the results depend on the processing

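Among 193 member results checked singly (members past the test under vehicle, with 2.5 and 5 µM CP14 and 5 µM CP18 and CP2, and in the interactions where any passed), none reversed its direction. DESeq2 ended 16 of these calls, all 54 libraries in 1 fit 15, the replicate block 6, and RLE scaling and no filter 4 each. By DESeq2 these included PLK3 (adjusted p = 0.061), SERTAD1 (0.068) and RRM2B (0.14) under vehicle, DDB2 (0.057) with 5 µM CP14 in empty vector cells and the FAS interaction (0.056), which also ended without the filter (0.078). PMAIP1 with 2.5 µM CP14 in empty vector cells missed the threshold by DESeq2 (0.052) and with the block (0.053). With all 54 libraries in 1 fit, the count of members past the test became 0 in place of 4 for the interaction with 1 µM CP14, 2 in place of 4 for 2.5 µM CP18 in empty vector cells, and 10 in place of 5 and of 6 for 5 µM CP18 in empty vector and USP18 cells. The difference between CP14 and CP18 at 2.5 µM in empty vector cells had 0 members, and it had 4 without the filter, 1 by DESeq2 and 3 with all 54 libraries. The cause was not tested. The other counts stayed within 1.5 times under RLE scaling, no filter, DESeq2 and all 54 libraries.

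Leaving out 1 library moved counts for weaker treatments by more than 1.5 times. The range was 3 to 7 (8 with all libraries) for 5 µM CP2 in empty vector cells, lower without any vehicle library or treated replicate 2 or 3, and 7 to 10 (11) in USP18 cells, lower without vehicle replicate 3. It was 6 to 8 (10) for 1 µM CP14 in USP18 cells, lower without treated replicate 1, 0 to 4 (4) for its interaction, where 8 of 12 libraries mattered, and 6 to 11 (15) for 2.5 µM CP14 in empty vector cells, where all but vehicle replicate 3 did. For CP18 it was 1 to 5 (3) for the interaction at 1 µM, lower without vehicle replicate 3 of either cell type, treated replicate 2 of empty vector or 3 of USP18 cells, and higher without treated replicate 1 of USP18 cells. At 2.5 µM it was 1 to 3 (4) in empty vector cells, lower without vehicle replicate 1 or 2 or treated replicate 2 or 3, and 5 to 7 (10) in USP18 cells, lower without any vehicle library or treated replicate 2. At 5 µM it was 2 to 10 (5) in empty vector cells, lower without any vehicle library or treated replicate 2 and higher without treated replicate 3, and 3 to 6 (6) in USP18 cells, lower without vehicle replicate 1 or 2 or treated replicate 1. The counts for the vehicle comparison (28 to 30) and for 5 µM CP14 (28 to 29 and 31 to 32) stayed close.

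Same-numbered libraries showed no shared deviation on average: their deviations had mean correlations from -0.014 to 0.013, with single values from -0.14 to 0.11. This does not show how the cultures were set up. With a replicate block the vehicle comparison had 30 members, and 8681 genes in place of 8792, and no count of members moved by over 1.5 times. Depth limits TNFRSF10C, and 3 libraries a group limit what small changes can be called.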
